A study of Rattus norvegicus with 12 samples.

Results

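A set of 9 rat genes that encode monocyte-attracting chemokines, fractalkine, the growth factor CSF1 and their receptors were followed in the L6 dorsal root ganglion, where the cell bodies of sensory nerves of that spinal segment lie. The ligands were Cx3cl1 (fractalkine), Ccl2, Ccl7, Ccl3 and Csf1, and the receptors were Cx3cr1, Ccr2, Ccr1 and Csf1r. All gene probes whose accession maps to one of these symbols were taken, which gave 10 probes for the 9 genes, among 15154 genes with a symbol on the array. Of the 9 genes, 8 were bright enough to be tested, among 20849 genes and unnamed accessions, and Ccr2 was not. The rats were males of strain Fischer 344, an inbred line, with 4 rats per group and 1 one-colour Agilent array per sample. Rats of the group old_CR were aged 25 to 28 months, and since the age of 6 weeks they had received food on only 3 days of each week, a caloric restriction of about 40% relative to old_AL. Rats of old_AL were also aged 25 to 28 months and ate ad libitum. Rats of young_AL were aged 6 months and ate ad libitum too. No hour of collection is given, so the time since the last meal in old_CR is not known here.

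Chemokines are small secreted proteins that draw leukocytes along a gradient. CCL2 and CCL7 act on monocytes through CCR2, CCL3 acts through CCR1 among other receptors, and fractalkine is a membrane-bound chemokine, made by neurons and endothelial cells, that is shed by proteases and read by CX3CR1 on monocytes, macrophages and microglia. CSF1 keeps macrophages alive and dividing through the receptor tyrosine kinase CSF1R. In rodents, injured sensory neurons are known to make CCL2 and CSF1, and resident macrophages of the ganglion carry CX3CR1 and CSF1R.

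The RefSeq promoter table of the build GRCr8 holds 6 of the 9 genes, and 2 ligand promoters are shown, that of Cx3cl1, the member called in both comparisons of old_CR, and that of Ccl7, the other ligand gene in the table. Each runs 5′ to 3′ on the gene's strand, from 250 bases before to 50 bases after the annotated start. Capitals mark matches to the motifs searched.
Cx3cl1 (chr19:10242771-10243070, minus strand): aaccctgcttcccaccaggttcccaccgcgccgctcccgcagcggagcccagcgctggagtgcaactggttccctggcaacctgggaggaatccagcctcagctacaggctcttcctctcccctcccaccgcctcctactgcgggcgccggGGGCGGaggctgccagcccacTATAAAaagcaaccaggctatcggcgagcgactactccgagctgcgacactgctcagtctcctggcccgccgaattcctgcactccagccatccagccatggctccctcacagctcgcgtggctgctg
Ccl7 (chr10:67513845-67514144, plus strand): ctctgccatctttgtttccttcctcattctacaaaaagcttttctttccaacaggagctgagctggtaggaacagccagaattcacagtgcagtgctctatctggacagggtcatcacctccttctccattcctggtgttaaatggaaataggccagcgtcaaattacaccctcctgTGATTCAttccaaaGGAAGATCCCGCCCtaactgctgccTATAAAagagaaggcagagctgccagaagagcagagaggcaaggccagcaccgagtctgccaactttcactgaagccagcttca
The motifs searched, on both strands, were TATAAA, the GC box GGGCGG, the AP-1 letters TGANTCA, an NF-kB half-site pair (GGG and CC with 5 bases between) and the E-box CACGTG. The Cx3cl1 window, with 66.3% G and C, held a GC box 99 bases and a TATAAA 78 bases before the annotated start. In that build the gene's span runs upstream to base 10244856, beyond the window, so the start used lies inside the span. In the Ccl7 window, TGATTCA stood 73 bases before the start and TATAAA 34 bases before it. Between them, an NF-kB match on the minus strand began 59 bases before the start and overlapped a minus-strand GC box that began 51 bases before it. TATAAA occurred in 14.2% of the 33469 promoter windows of that table, GGGCGG in 33.1%, TGANTCA in 7.33%, the NF-kB pair in 47.3% and CACGTG in 6.42%, which neither window held.

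One array stood far apart from the others, and a second one less so. The array old_AL 1 had a 75th percentile of 7662 intensity units, against 2634 to 3110 on the other 11, carried 4026 gene spots marked uneven by the scanner software, against 1 to 208, and had a median correlation of 0.929 with the other arrays, against 0.971 to 0.994. It was left out of the values reported first, a choice made with earlier results of these data known. The members' calls, and the list medians printed for old_CR against old_AL, are also given with all 12 arrays. There, without array weights, 0 of the 8 tested genes were called in each comparison. The array old_AL 4 was kept, but its 75th percentile was 34.5 times its 25th, against 60.5 to 72.8 times on the 10 remaining arrays, its median correlation of 0.971 was the lowest of the 11, and limma's array weights gave it 0.215, the lowest weight of the 11. Without old_AL 4 the features called in old_CR against old_AL were 2, against 222 with it, and no member was called there. Signals are given as a percentage of each array's own 75th percentile of gene-spot signal, and differences as log2 differences of these values ± SE from limma, with p-values adjusted by the Benjamini-Hochberg method over all features tested and a threshold of 0.05. Both old groups were hybridised on 1 slide, in different rows, and young_AL on another slide, so age and slide, and diet and row, cannot be told apart. Probes of sensory neuron markers were bright, with 10 of 12 markers tested and a summed signal of 49708 to 52759% of the 75th percentile in old_CR, 52612 to 55074% in old_AL and 52000 to 55957% in young_AL. In bulk tissue, fewer cells of a type and less RNA per cell cannot be told apart.

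In old_CR against old_AL, 2 of the 8 tested genes fell, Cx3cl1 and Ccl2, beside 1.06% of all features called in either direction and 0.796% called lower. The difference was negative for 7 of the 8, with a median of -0.42, against a median of -0.05 over all features. That median was -0.35 under quantile normalization, -0.25 under median centring, -0.40 under normexp background correction and -0.22 with all 12 arrays, where 5 of the 8 were negative. Set against young_AL, old_CR had lower Cx3cl1, which was the 1 gene called of 8, where 2.41% of features were called. Between old_AL and young_AL, none of the 8 was called by limma on 11 arrays, where 3.24% of features were called. At an unadjusted p under 0.05, 2 of the 8 were higher in old_AL, Ccl2 and Csf1r, beside 23.1% of features in either direction. Fitted to all 12 arrays, limma called 0 of the 8 in each comparison, where it called 0.00478% of features in old_CR against old_AL and 0.0191% in each comparison with young_AL. With array weights, chosen after seeing the data, which gave old_AL 1 a weight of 0.0066, the 12-array fit called Cx3cl1 and Ccl2 in both comparisons of old_CR. That weighted fit called 934 of 20942 features in old_CR against old_AL and 1937 of 20942 in old_CR against young_AL. Since old_AL does not enter the difference between old_CR and young_AL, that difference was the same on 12 arrays without weights. Its adjusted p in that unweighted limma fit was 0.99997 for each of the 8. At an unadjusted p under 0.05 the 12-array fit had 0 of the 8 in old_CR against old_AL (5.96% of features), 1 of the 8, Cx3cl1, in old_CR against young_AL (2.72%) and 0 of the 8 in old_AL against young_AL (6.71%).

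**Figure D1:**
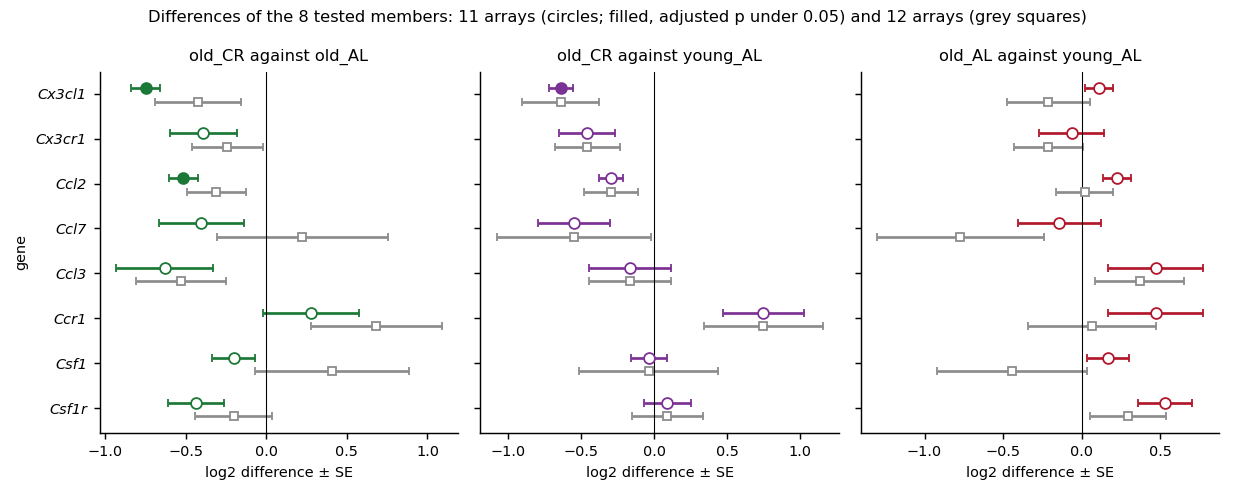
Log2 difference ± SE of the 8 tested genes in the 3 comparisons, from the fit to 11 arrays (circles, filled where the adjusted p is under 0.05) and to all 12 arrays (grey squares). Cx3cl1 is filled in both comparisons of old_CR, Ccl2 in old_CR against old_AL, and no gene is filled in old_AL against young_AL.

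Fractalkine was lower in old_CR than in either group fed ad libitum. Cx3cl1 (probe A_44_P116591, 2 spots) was at 122, 122, 101 and 109% in old_CR 1 to 4, at 77.1, 187, 205 and 179% in old_AL 1 to 4, and at 195, 172, 178 and 160% in young_AL 1 to 4. All 4 old_CR arrays lay below all young_AL arrays and below 3 of 4 old_AL arrays, and only old_AL 1, the array that stood apart, lay below them. The mean was 113 ± 10.5% in old_CR (SD, n = 4), 190 ± 13.4% in old_AL (n = 3) and 176 ± 14.5% in young_AL (n = 4). Cx3cl1 fell by 0.75 ± 0.09 in old_CR against old_AL (limma, adjusted p = 0.0256), which is 1.68 times lower, and ranked 8th by p among the 20849 features. On all 12 arrays the difference was -0.42 ± 0.26 (adjusted p = 0.644), and with the 2 old groups fitted alone, which lie on 1 slide, it was -0.75 (adjusted p = 0.0831). Against young_AL, Cx3cl1 fell by 0.64 ± 0.08 in old_CR (adjusted p = 0.0120), 1.56 times lower, and ranked 37th. The 12-array fit gave the same difference there, -0.64 ± 0.26, with an adjusted p of 0.99997. Between old_AL and young_AL the difference was 0.11 ± 0.09 (adjusted p = 0.469), and -0.21 with all 12 arrays.

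**Figure D2:**
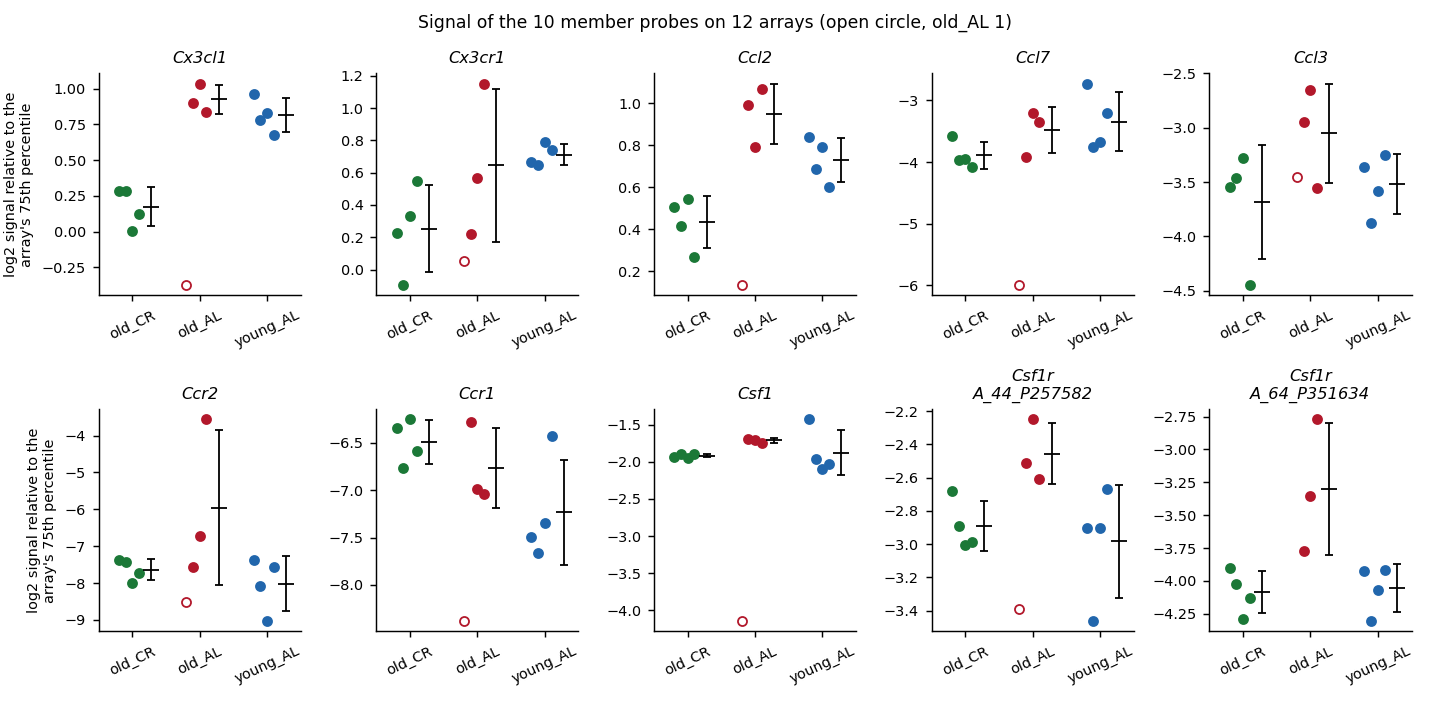
Signal of each of the 10 probes on every array, as log2 relative to the array's 75th percentile, for old_CR, old_AL and young_AL. Points are arrays 1 to 4 from left to right, the open circle is old_AL 1, and bars give the mean ± SD without it. The old_CR points of Cx3cl1 lie between 0.0080 and 0.29, below the old_AL points other than old_AL 1, which run from 0.84 to 1.04, and the young_AL points, from 0.68 to 0.96.

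CCL2 is the main ligand of CCR2. Its gene, Ccl2 (probe A_42_P695401, 10 spots), was at 142, 133, 146 and 121% in old_CR, at 110, 199, 173 and 210% in old_AL and at 179, 161, 173 and 152% in young_AL, arrays 1 to 4 in each. The old_CR arrays lay below every young_AL array and below every old_AL array but old_AL 1. Ccl2 fell by 0.52 ± 0.09 in old_CR against old_AL (limma, adjusted p = 0.0445), 1.43 times lower, and by 0.31 ± 0.18 with all 12 arrays (adjusted p = 0.644). Fitted without young_AL, the difference was the same size, with an adjusted p of 0.116. Leaving out 1 further array gave -0.60 to -0.46, with adjusted p-values of 0.0309 to 0.126 and 2 of 11 fits under the threshold, those without old_AL 2 and without old_AL 3. Against young_AL the difference was -0.29 ± 0.08 (adjusted p = 0.0968), and in old_AL against young_AL it was 0.22 ± 0.09 (adjusted p = 0.184), 0.02 with all 12 arrays.

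The 10 replicate spots of Ccl2 show how finely each array measured it. Over the 11 arrays the SD among its spots on 1 array was between 0.018 and 0.047 on the log2 scale, and on old_AL 1 it was 0.14. All 40 old_CR spots, from 0.20 to 0.58, lay below all 30 spots of old_AL 2 to 4, the lowest of which was 0.72. Of the 40 old_CR spots, 35 lay below every young_AL spot. Spots of 1 array share its RNA and are not replicates of a group.

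**Figure D3:**
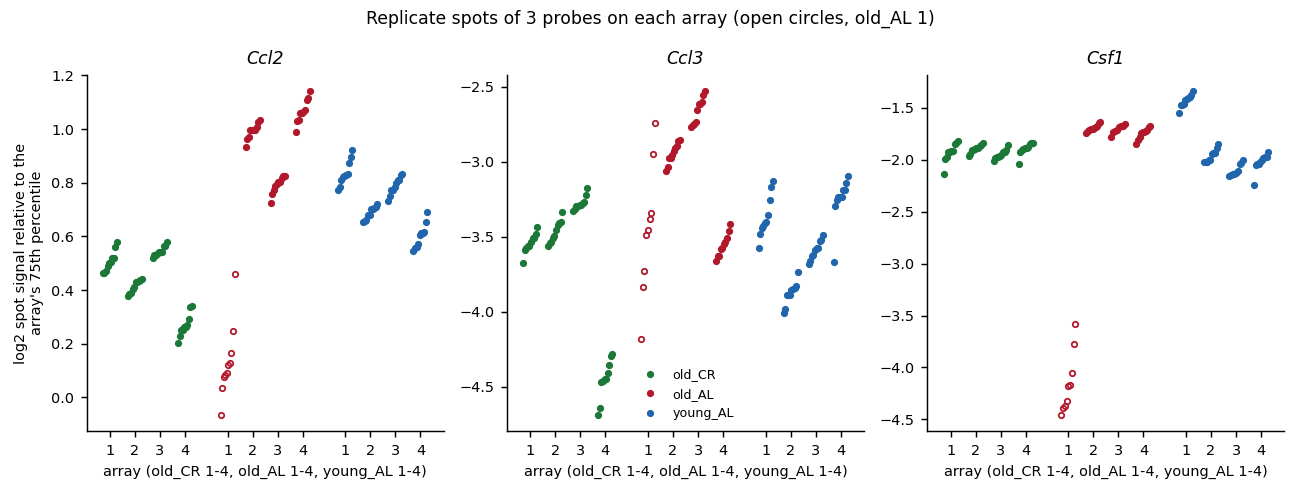
Each replicate spot of the Ccl2, Ccl3 and Csf1 probes, as log2 relative to the array's 75th percentile, by array in the order old_CR, old_AL and young_AL, with open circles for old_AL 1. For Ccl3, old_CR 4 and old_AL 4 lie below the other arrays of their group, whereas for Csf1 the SD between the old_CR arrays, 0.026, is below the SD among spots on each of them, 0.038 to 0.093. Spots on old_AL 1 spread most, with an SD of 0.44 for Ccl3.

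CCL7 shares CCR2 with CCL2. Ccl7 (2 spots) was at 8.41, 6.40, 6.47 and 5.94% in old_CR, at 1.56, 6.65, 10.9 and 9.80% in old_AL and at 15.1, 7.38, 7.80 and 10.9% in young_AL. The old_CR values sat at the low end of both other groups and overlapped them. None of its differences passed: -0.41 ± 0.26 in old_CR against old_AL (adjusted p = 0.341), -0.55 ± 0.24 in old_CR against young_AL (adjusted p = 0.274) and -0.14 ± 0.26 in old_AL against young_AL (adjusted p = 0.764). Over all 12 arrays the first changed sign, to 0.22, and the last was -0.77. In GRCr8 the end of Ccl2 lies 9220 bases before the start of Ccl7 on chromosome 10.

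CCL3, a ligand of CCR1, spread widely within groups. Ccl3 (10 spots) was at 8.59, 9.06, 10.3 and 4.58% in old_CR, at 9.11, 13, 15.9 and 8.52% in old_AL and at 9.71, 6.81, 8.33 and 10.5% in young_AL. The groups overlapped, with old_AL 2 and 3 the highest arrays and old_CR 4 the lowest. Its difference was -0.63 ± 0.30 in old_CR against old_AL (adjusted p = 0.214), -0.16 ± 0.28 in old_CR against young_AL (adjusted p = 0.806) and 0.47 ± 0.30 in old_AL against young_AL (adjusted p = 0.376). Including old_AL 1 these were -0.53, -0.16 and 0.37. Without old_CR 4 the difference of old_CR from young_AL turned to 0.09.

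CSF1 is the growth factor of macrophages, and none of the differences of its gene passed on 11 arrays. Csf1 (10 spots) was at 26.3, 26.9, 26.0 and 26.9% in old_CR, at 5.65, 31.0, 30.7 and 29.9% in old_AL and at 37.1, 25.7, 23.3 and 24.6% in young_AL. The old_CR arrays lay just below old_AL 2 to 4 without overlap, young_AL 1 was the highest of all, and old_AL 1 was far below every other array. The difference was -0.20 ± 0.13 in old_CR against old_AL (adjusted p = 0.349), -0.04 ± 0.12 in old_CR against young_AL (adjusted p = 0.914) and 0.17 ± 0.13 in old_AL against young_AL (adjusted p = 0.474). With old_AL 1 in the fit the first and the last changed sign, to 0.41 and -0.44. Without young_AL 1, Csf1 was called in old_AL against young_AL, at 0.32 ± 0.04 (limma, adjusted p = 0.0236), and the difference of old_CR from young_AL turned to 0.11.

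Among the receptors, the fractalkine receptor gene Cx3cr1 (2 spots) was at 117, 93.5, 126 and 146% in old_CR, at 104, 116, 148 and 222% in old_AL and at 159, 157, 173 and 167% in young_AL. Every old_CR array lay below every young_AL array, while old_AL spanned both groups. The difference from young_AL was -0.46 ± 0.19 in old_CR (adjusted p = 0.243) and -0.07 ± 0.21 in old_AL (adjusted p = 0.866), which was -0.21 with all 12 arrays. Set against old_AL, old_CR differed by -0.39 ± 0.21 (adjusted p = 0.251), and -0.24 with all 12 arrays.

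Csf1r, the receptor of CSF1, was read by a pair of probes. The brighter one (A_44_P257582, 2 spots) was at 15.6, 13.5, 12.4 and 12.6% in old_CR, at 9.54, 17.6, 21.0 and 16.4% in old_AL and at 13.4, 9.06, 13.4 and 15.8% in young_AL. The other probe (A_64_P351634, 1 spot) was at 6.67, 6.16, 5.12 and 5.72% in old_CR, at 7.32, 9.77 and 14.6% in old_AL 2 to 4 and at 6.58, 5.05, 5.95 and 6.63% in young_AL, and its spot on old_AL 1 was an outlier and was left out. On both probes old_AL 2 to 4 were above all old_CR and all young_AL arrays. On the brighter probe the difference was 0.53 ± 0.17 in old_AL against young_AL (adjusted p = 0.120) and -0.44 ± 0.17 in old_CR against old_AL (adjusted p = 0.158), and 0.30 and -0.20 with all 12 arrays. On the other probe, in a fit of all 30367 probes, the differences were 0.76 ± 0.21 (adjusted p = 0.0742) and -0.79 ± 0.21 (adjusted p = 0.100), and with all 12 arrays in the fit the adjusted p-values were 0.135 and 0.221. Between old_CR and young_AL the differences were 0.09 ± 0.16 on the brighter probe (adjusted p = 0.810) and -0.03 ± 0.20 on the other (adjusted p = 0.976).

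The CC chemokine receptor genes Ccr1 and Ccr2 were near background. Ccr1 (2 spots) was at 1.23, 0.923, 1.31 and 1.04% in old_CR, at 0.299, 1.29, 0.791 and 0.762% in old_AL and at 0.554, 0.495, 0.613 and 1.16% in young_AL. It was well above background on 4 old_CR, 1 old_AL and 2 young_AL arrays, and the groups overlapped. Its difference was 0.28 ± 0.30 in old_CR against old_AL (adjusted p = 0.567, and 0.68 with all 12 arrays), 0.75 ± 0.28 in old_CR against young_AL (adjusted p = 0.190) and 0.47 ± 0.30 in old_AL against young_AL (adjusted p = 0.371, and 0.06 with all 12 arrays). Without young_AL 4, Ccr1 was called in old_CR against young_AL, at 1.02 ± 0.20 (limma, adjusted p = 0.0450), where 421 of 20779 features were called. That array was 1 of the 2 young_AL arrays with Ccr1 well above background, so the call set old_CR against signals near background. Ccr1 also met the filter of 4 arrays only through its old_CR arrays. Ccr1 was the 1 tested gene with a positive difference in old_CR against old_AL.

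Ccr2, the receptor of CCL2 and CCL7, was at 0.603, 0.576, 0.392 and 0.469% in old_CR, at 0.274, 0.532, 0.938 and 8.46% in old_AL and at 0.605, 0.371, 0.190 and 0.525% in young_AL. It was well above background on 0 old_CR, 2 old_AL and 1 young_AL arrays, so it did not enter the fit of genes, and the single high value was that of old_AL 4. In the fit of all probes its difference was -1.68 ± 0.83 in old_CR against old_AL (limma, adjusted p = 0.218), and -1.04 ± 0.86 with all 12 arrays (adjusted p = 0.561). Its old_CR signal was then set at the lowest signal well above background on each array, with old_AL as measured. The old_AL mean was 2.42-fold higher on 11 arrays and 1.55-fold higher on 12. This ratio is not a lower limit, since the old_AL mean includes old_AL 2, and on 12 arrays old_AL 1, with no spot well above background. The ratio rests on old_AL 4, since old_AL 2 lay within the range of old_CR. Without old_AL 1 and old_AL 4, a choice made after seeing the data, it was 1.06-fold. On old_AL 4 the 25th percentile was 79.7 intensity units, against 37.7 to 44.6 on the other arrays but old_AL 1.

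Counted together, 4 of the 8 tested genes had every old_CR array below old_AL 2 to 4 (Cx3cl1, Ccl2, Csf1 and Csf1r), where 15.3% of all features did. Every old_CR array was below every young_AL array for 3 of 8 (Cx3cl1, Ccl2 and Cx3cr1), against 10.2% of features. Old_AL 2 to 4 were above every young_AL array for 1 of 8 (Csf1r), against 11.9% of features. With old_AL 1 included the first and the last counts were 0, where 4.55% and 4.26% of features qualified.

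Genes of the same pathways were read from lists. With all 12 arrays none of the genes named below from a list, or as alike to a member, was called. Of 16 other CC chemokine genes, 14 were tested and limma called 0 in every comparison. The median difference was 0.63 in old_AL against young_AL, with 12 of 14 positive. Under quantile normalization that median was 0.31 with 8 of 14 positive, and under median centring 0.47 with 9 of 14 positive. The median was -0.36 in old_CR against old_AL, with 13 of 14 negative (9 of 14 with all 12 arrays, median -0.34, or under quantile normalization, median -0.16), and -0.05 in old_CR against young_AL. Ccl21, which guides lymphocytes and dendritic cells, differed by 2.73 ± 0.76 in old_AL against young_AL (adjusted p = 0.0801) and by -2.18 ± 0.76 in old_CR against old_AL (adjusted p = 0.124). Ccl5, which draws T cells and monocytes, differed by 1.48 ± 0.57 in old_AL against young_AL (adjusted p = 0.169) and by -1.58 ± 0.57 in old_CR against old_AL (adjusted p = 0.133). Ccl21 and Ccl5 were chosen after their values were seen. Of the other CC and scavenging receptors 8 were tested and 0 were called, with medians of 0.10, -0.18 and -0.0076 in the same order of comparisons, and of -0.06 in old_AL against young_AL and -0.03 in old_CR against old_AL with all 12 arrays. Under quantile normalization these 2 medians were -0.08, with 2 of 8 positive, and 0.15, with 5 of 8 positive.

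Fractalkine is shed by the proteases ADAM10, ADAM17 and cathepsin S and also binds integrins. Of 5 genes tested from that list, Adam17 fell by 0.52 ± 0.08 in old_CR against young_AL (limma, adjusted p = 0.0188). Between old_CR and old_AL all 5 differences were negative, with a median of -0.41, and 0 were called. That median was -0.12 with all 12 arrays, -0.19 under quantile normalization and -0.24 under median centring, where 4 of the 5 were negative. No gene of that list was called in old_AL against young_AL, where its median was 0.10, and 0.03 with all 12 arrays.

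Among 7 tested genes of other colony-stimulating factors and receptors, Il3ra, the alpha chain of the interleukin 3 receptor, was 0.28 ± 0.06 higher in old_AL against young_AL (adjusted p = 0.0442) and fell by 0.37 ± 0.06 in old_CR against old_AL (adjusted p = 0.0367). On 12 arrays these were -0.081 and -0.012, and neither passed. Il34, the second ligand of CSF1R, fell by 0.30 ± 0.05 in old_CR against young_AL (adjusted p = 0.0269). The list's medians were -0.15 in old_CR against old_AL, -0.11 in old_CR against young_AL and -0.03 in old_AL against young_AL, with -0.09 for the first and 0.07 for the last on 12 arrays.

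Of 13 tested genes of CSF1 receptor and myeloid signalling, 4 rose in old_AL against young_AL. Among them were Inpp5d, the phosphatase SHIP1, by 0.23 ± 0.04 (limma, adjusted p = 0.0256), and Tyrobp, the adaptor DAP12, by 0.84 ± 0.19 (adjusted p = 0.0476). On 12 arrays Inpp5d differed by -0.092 and Tyrobp by 0.70, and none of the 13 was called. In old_CR against old_AL none of the 13 was called by limma, with 10 negative and a median of -0.39 (-0.16 with all 12 arrays), and Spi1, the transcription factor PU.1, chosen after its value was seen, differed by -1.35 ± 0.34 (adjusted p = 0.0697). Of 11 NF-kB factors and early inflammatory targets none was called in any comparison, with medians of -0.36 in old_CR against old_AL, -0.20 in old_CR against young_AL and 0.13 in old_AL against young_AL. With all 12 arrays the first was -0.23 and the last 0.04.

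**Figure D4:**
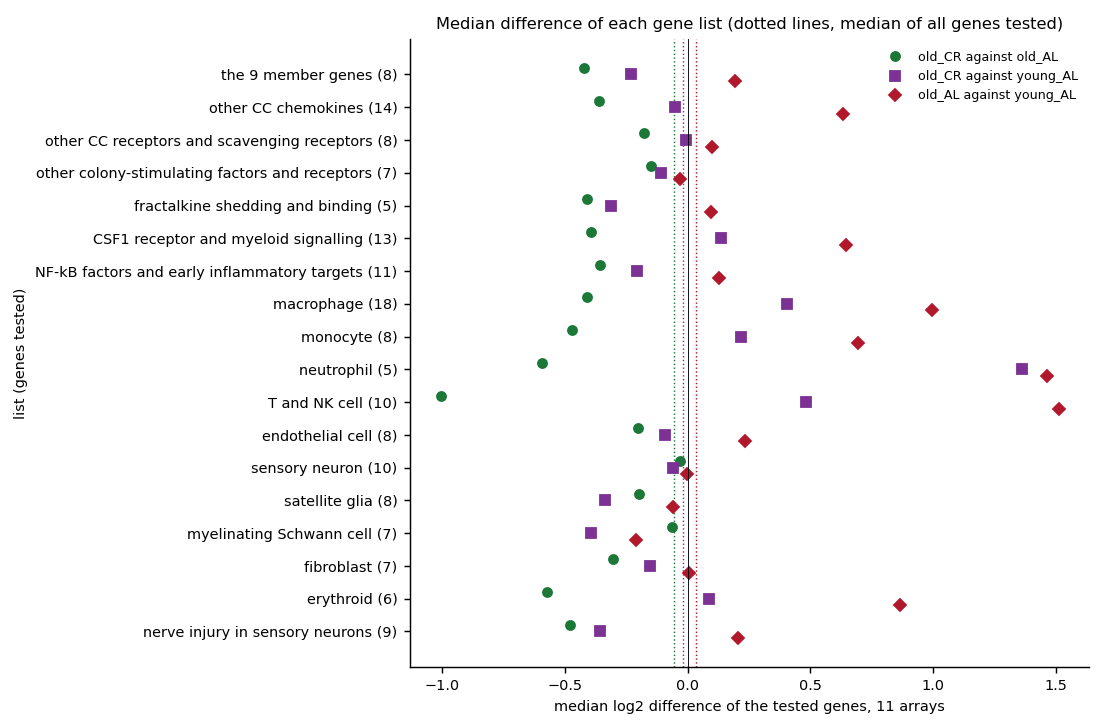
Median log2 difference over the tested genes of each list in the 3 comparisons on 11 arrays, with the number of genes tested after each name, and dotted lines at the median of all features in each comparison. All lists lie left of 0 in old_CR against old_AL, as does the median of all features, at -0.05. The T and NK cell, neutrophil and macrophage lists lie furthest right in old_AL against young_AL, and the sensory neuron list lies near 0 in all.

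Markers of the cells that make or read these ligands were set beside them. All 18 tested macrophage markers of 20 listed were negative in old_CR against old_AL, with a median of -0.41 and 0 called by limma, and, without old_AL 1 here and for the lists below, their summed signal was 2608 to 4126% in old_CR, 3330 to 4750% in old_AL and 2290 to 3646% in young_AL. In old_AL against young_AL all 18 were positive, with a median of 0.995 (0.65 with all 12 arrays), and 5 rose: Gpnmb by 1.48, Lyve1 by 1.09, Fcgr2b by 1.33 and, beyond the rule for naming genes, Cd163 by 1.81 and Mrc1 by 1.13. Set against young_AL, old_CR had 16 of 18 positive, with a median of 0.41, and Gpnmb, Lyve1 and Fcgr2b rose, by 1.19, 0.82 and 1.32. In that comparison Cx3cl1 fell and the median of the macrophage markers was positive, and whether these are linked was not tested. Of the 18, 12 were negative in old_CR against old_AL with all 12 arrays (median -0.26), 16 under quantile normalization and 17 under median centring. Marco was too dim to be tested, and Ms4a7 was not used here. Their part in the differences of Cx3cr1 and Csf1r, which macrophages carry, was not tested.

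Endothelial and glial markers were also set beside Cx3cl1 and Ccl2. Of 10 endothelial markers 8 were tested and 0 were called by limma in each comparison, with medians of -0.20 in old_CR against old_AL, -0.09 in old_CR against young_AL and 0.23 in old_AL against young_AL. Their summed signal was 387 to 431% in old_CR, 398 to 475% in old_AL and 417 to 476% in young_AL. The endothelial adhesion gene Pecam1, chosen after its value was seen, differed by -0.60 ± 0.14 in old_CR against old_AL (adjusted p = 0.0610). The endothelial median in old_CR against old_AL was 0.0063 under quantile normalization and -0.03 with all 12 arrays, and in old_AL against young_AL it was -0.07 and 0.05. Of 8 satellite glia markers, Slc1a3, a glutamate transporter, fell by 0.36 ± 0.05 in old_CR against old_AL (adjusted p = 0.0289), and in old_CR against young_AL Slc1a3 fell by 0.40, Fabp7 by 0.60 and Sox10 by 0.31. The summed signal of satellite glia markers was 8925 to 9769% in old_CR, 10003 to 10676% in old_AL and 9578 to 10456% in young_AL. Old_CR and old_AL did not overlap there, but old_AL 1, at 9365%, lay within the range of old_CR. The satellite glia median in old_CR against old_AL was -0.20, and -0.19 with all 12 arrays. It was -0.10 under quantile normalization and -0.03 under median centring, where 4 of the 8 were negative and 0 were called. The part of these cells in the differences of Cx3cl1 and Ccl2 was not tested.

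Neuronal markers had list medians of -0.03 in old_CR against old_AL, -0.06 in old_CR against young_AL and -0.0039 in old_AL against young_AL. Under median centring 9 of the 10 were positive in old_CR against old_AL, with a median of 0.14, and with all 12 arrays the median was -0.13. Isl1, a sensory neuron transcription factor, was 0.31 ± 0.04 higher in old_CR against old_AL (adjusted p = 0.0289) and fell by 0.19 in old_AL against young_AL, where the neurofilament gene Nefh fell by 0.25. Nefh fell by 0.22 in old_CR against young_AL. Of 9 genes known to rise in injured sensory neurons none was called in any comparison, with medians of -0.48 in old_CR against old_AL, -0.35 in old_CR against young_AL and 0.21 in old_AL against young_AL. With all 12 arrays the first was -0.26 and the last -0.0039. Their summed signal was 2601 to 2701% in old_CR, 3023 to 3418% in old_AL 2 to 4 and 2626 to 3173% in young_AL 2 to 4, whereas young_AL 1 stood apart at 5204% and old_AL 1 at 7079%. The array young_AL 1 was also the highest for Csf1 and Ccl7, and the part of this list in those values was not tested.

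Lists of other cells had medians of -0.47 (monocyte), -0.59 (neutrophil), -1.002 (T and NK cell), -0.06 (myelinating Schwann cell), -0.31 (fibroblast) and -0.57 (erythroid) in old_CR against old_AL, and no gene of them was called there. With all 12 arrays the medians there were -0.18, 0.10, -0.43, 0.05, -0.58 and -0.25 in the same order of lists, and under quantile normalization -0.12, -0.45, -0.35, 0.0085, -0.27 and -0.46. In old_AL against young_AL the monocyte gene Ly6c rose by 0.71, the neutrophil granule genes Camp and Ngp by 2.28 and 2.26, the T cell gene Cd8a by 2.21 and the erythroid transcription factor gene Klf1 by 0.86 (limma, adjusted p of 0.00332 to 0.0443). The young_AL means of Ngp and Cd8a were -7.21 and -7.09 on the log2 scale, beside -7.23 for Ccr1, so their rises are set against signals near background. The list medians were 0.69 (monocyte), 1.46 (neutrophil), 1.51 (T and NK cell), -0.21 (myelinating Schwann cell), 0.0047 (fibroblast) and 0.86 (erythroid), which on 12 arrays were 0.33, 1.24, 1.24, -0.22, 0.12 and 0.49. Under quantile normalization they were 0.31, 1.41, 1.14, -0.21, -0.03 and 0.76, and no gene of the monocyte or T and NK cell list was called. In old_CR against young_AL Camp rose by 1.69, the myelin gene Pmp22 fell by 0.30 and the collagen gene Col1a1 fell by 0.92 (adjusted p of 0.00644 to 0.0491), with medians of 0.22, 1.36, 0.48, -0.39, -0.15 and 0.09 in the same order of lists.

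The genes whose pattern over the 11 arrays was most like that of a called gene were found by Pearson's r among 12347 genes, as a description in which all points share their array and scaling. Because they were picked for likeness to a gene called on these same arrays, the direction of their differences follows from that choice. Their adjusted p-values are therefore no separate support. For Cx3cl1 the genes were Litaf (r = 0.966), which encodes a protein of late endosomes, Prrx1 (r = 0.957), a mesenchymal homeobox gene, and Kank1 (r = 0.955), an adhesion adaptor. Litaf fell by 0.27 ± 0.04 in old_CR against old_AL (adjusted p = 0.0382) and by 0.19 ± 0.04 in old_CR against young_AL (adjusted p = 0.0483). Prrx1 fell by 0.48 ± 0.09 in old_CR against old_AL (adjusted p = 0.0489) and by 0.40 ± 0.09 in old_CR against young_AL (adjusted p = 0.0481). Kank1 fell by 0.23 ± 0.05 in old_CR against young_AL (adjusted p = 0.0358) and differed by -0.22 ± 0.05 in old_CR against old_AL (adjusted p = 0.0610). For Ccl2 they were Cdkn1a (r = 0.933), the cell cycle inhibitor p21, Socs5 (r = 0.931), a suppressor of cytokine signalling, and Hist1h4b (r = 0.924), a histone gene. Between old_CR and old_AL Cdkn1a fell by 0.35 ± 0.07 (adjusted p = 0.0459), and Socs5 and Hist1h4b differed by -0.18 ± 0.04 (adjusted p = 0.0509) and -0.29 ± 0.08 (adjusted p = 0.0776).

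The differences of Cx3cl1 and Ccl2 in old_CR against old_AL were recomputed under 14 other settings and with each of 11 further arrays left out. Cx3cl1 was lower in old_CR in each of them, by 0.42 to 0.81, and passed in 11 of the 14 settings and 8 of the 11 leave-outs. The leave-outs without young_AL 3 (adjusted p = 0.0516), without old_AL 4 (adjusted p = 0.0585) and without old_CR 4 (adjusted p = 0.0947) did not pass. Ccl2 was lower in old_CR in each too, by 0.31 to 0.60, and passed in 10 of the 14 settings but in only 2 of the 11 leave-outs. Set against young_AL, Cx3cl1 passed in 12 of the 14 settings and in 10 of 11 leave-outs, the exception being the one without young_AL 3 (adjusted p = 0.0526). These settings are not independent checks. The deposited series table holds the same intensities, so it could change nothing. Cx3cl1 and Ccl2 have a single probe each, so the probe settings left their differences fixed. The weighted 12-array fit gave old_AL 1 a weight of 0.0066, so that array had little part in it.

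**Figure D5:**
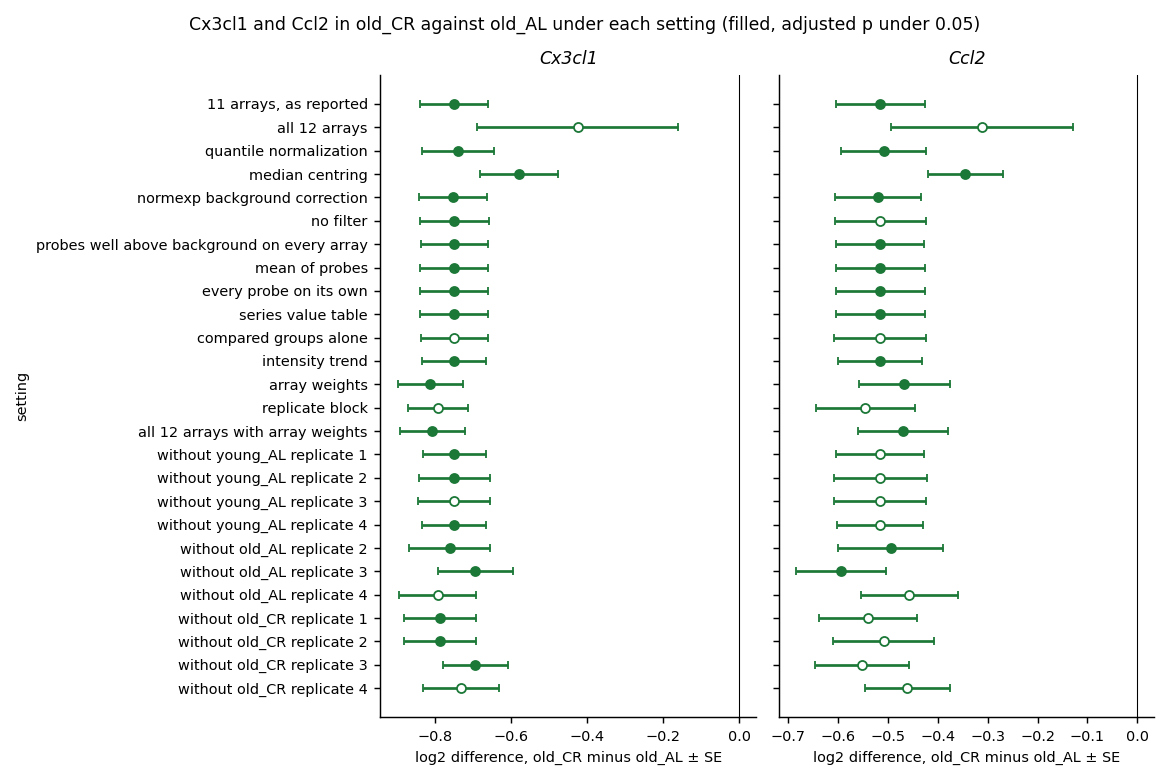
Log2 difference ± SE of Cx3cl1 and Ccl2, old_CR minus old_AL, under each setting and with each further array left out, filled where the adjusted p is under 0.05. All points lie left of 0, and the one nearest to it in each panel is the fit to all 12 arrays, at -0.42 for Cx3cl1 and -0.31 for Ccl2.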

How the data were processed

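RNA of 12 ganglion samples was measured on Agilent rat arrays with a single dye, Cy3, as the labels' protocols state. The authors deposited the linear intensity of each spot as Agilent Feature Extraction 10.7 wrote it, after its own background subtraction and spatial detrending, per the file headers and the submitters' processing notes. The deposited series table holds the same intensities.

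Each processed intensity was put on a log2 scale relative to the 75th percentile of its array. Outlier-flagged spots were dropped, spots of 1 probe were averaged, a gene was read from its brightest probe, and a probe well above background (on at least 0.5 of its spots) on fewer than 4 arrays was left out. Symbols came from accessions in a RefSeq table of GRCr8, used for names because the array files carry an older build: 17998 of 30367 probes matched. All groups entered 1 linear model in limma 3.58.1 under R 4.3.3, tested on simulated data with 200 changed genes, with an adjusted p threshold of 0.05. The array old_AL 1 was left out, a choice made with earlier results of these data known, with the 12-array fit beside it. The array number limits precision: groups have 3 or 4 arrays. The design text gives 4 rats per group but the labels do not tie an array to a rat, so p-values measure the spread between these samples. Alternatives covered the arrays kept, scaling, background correction, filter, probes of a gene, source table, groups fitted, variance model, array weights, a replicate block and leave-outs of 1 array.

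The members and the 17 gene lists (chemokines, receptors, growth factors, fractalkine shedding, CSF1 receptor signalling, NF-kB targets, nerve injury and cell type markers) were chosen with earlier results of these data known. Named genes were all 9 members, up to 3 called genes per list and comparison, and the 3 genes most like each called member; others are marked as chosen after their values were seen or as beyond the rule. The values of some listed genes are not reported here.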

Additional observations from a re-analysis of the deposited data

Results flagged for a closer look

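Within each group of 4 arrays the highest and lowest value of each member probe was set against its neighbour, with all 12 arrays in place. Of 29 groups of 4 tested, 2 held a value that lay far from the others, and chance alone gives about 1 such group in 20. Csf1 on old_AL 1 was at -4.15 on the log2 scale relative to the array's 75th percentile, where the nearest old_AL array was at -1.74, a gap of 0.979 of the group's range. Cx3cl1 on old_AL 1 was at -0.37, where the nearest old_AL array was at 0.84, a gap of 0.860 of the range. Both values come from the array that stood apart in its 75th percentile and its uneven spots, and the results are given with and without it.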

How the results depend on the processing

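Of 596 recomputed differences of the member genes, 550 kept their sign and their side of the threshold, 22 no longer passed, 6 newly passed and 18 changed sign. Of 1249 for the other named genes, 804 kept both, 412 no longer passed, 31 newly passed and 2 changed sign. Both tallies include the deposited series table, which holds the same intensities and could change nothing. With all 12 arrays the number of members called was 0 in each comparison and the number of features called was 4 in old_AL against young_AL, 1 in old_CR against old_AL and 4 in old_CR against young_AL. With all 12 arrays and array weights, chosen after seeing the data, members called were 2, Cx3cl1 and Ccl2, in old_CR against old_AL and in old_CR against young_AL, and features called were 1019 in old_AL against young_AL, 934 in old_CR against old_AL and 1937 in old_CR against young_AL. Array weights on 11 arrays gave 2 members in old_CR against young_AL, Cx3cl1 and Ccl2, with 1209 features in old_CR against old_AL and 1775 in old_CR against young_AL.

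In old_AL against young_AL the 676 calls (61.5% higher) became 1067 (22.9% higher) under quantile normalization, 3404 (9.43% higher) under median centring, 3838 (86.3% higher) and 2 members, Ccr1 and Csf1r, under normexp, 25 with the groups compared alone and 1089 with an intensity trend. In old_CR against old_AL the 222 calls (25.2% higher) became 393 (69.5%) under quantile normalization, 3303 (92.2%) under median centring, 4732 (506 of them higher) under normexp, 128 with 1 member without a filter, 370 with probes bright on every array, 865 with an intensity trend, and 0 with 0 members with the groups alone (4684 at an unadjusted p under 0.05). In old_CR against young_AL the 503 calls became 191 under median centring, 226 without a filter and 879 with the groups alone. Median centring shifted the median of all features by -0.16 in old_AL against young_AL and by 0.17 in old_CR against old_AL, and quantile normalization shifted old_CR against old_AL by 0.10.

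The deviations of same-numbered arrays from their group means correlated at -0.089 to 0.087. Differently numbered arrays were not compared in this way, so whether the numbers share more than a name was not tested. With the replicate block, members called were 0 in old_CR against old_AL and 0 in old_CR against young_AL, and features called were 20 in old_AL against young_AL, 1 in old_CR against old_AL and 17 in old_CR against young_AL.

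Leaving out 1 further array gave 0 to 1 members (Csf1, without young_AL 1) and 70 to 402 features (without young_AL 2 and without old_AL 2) in old_AL against young_AL, 0 to 2 members and 1 to 924 features (without old_CR 4 and without old_AL 2) in old_CR against old_AL, and 0 to 2 members (2, with Ccr1, without young_AL 4) and 42 to 862 features (without young_AL 3 and without old_AL 4) in old_CR against young_AL.

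Changes of sign in old_AL against young_AL were Cx3cl1 with all 12 arrays (-0.21) and median centring (-0.049), Cx3cr1 over the leave-outs (-0.32 to 0.15, highest without old_AL 2), Ccl7 with array weights (0.036), the replicate block (0.012), all 12 weighted arrays (0.0095) and over the leave-outs (-0.29 to 0.069, highest without old_AL 2), Ccr1 under quantile normalization (-0.30), Csf1 with all 12 arrays (-0.44), Il3ra (-0.081) and Inpp5d (-0.092) with all 12 arrays. In old_CR against old_AL they were Ccl7 (0.22) and Csf1 (0.41) with all 12 arrays and Ccr1 under normexp (-0.24). In old_CR against young_AL they were Ccl3 over the leave-outs (-0.30 to 0.092, highest without old_CR 4), Csf1 with array weights (0.020), all 12 weighted arrays (0.018) and over the leave-outs (-0.11 to 0.11, highest without young_AL 1), and Csf1r over the leave-outs (-0.068 to 0.20, lowest without young_AL 2). The causes of these changes of sign were not tested. Fewer arrays or groups leave fewer residual degrees of freedom, which bears on p-values and not on signs. Signals near background, as for Ccr1 and Ccr2, limit what can be read from them.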
